A study of Arabidopsis thaliana with 6 samples.

Results

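The plant cell wall is remodelled by enzyme families whose members are numerous, and 60 of their genes were read here in seedlings of Arabidopsis thaliana that overexpress TOC1. Members were all genes whose symbol on the array annotation begins with TBL, XTH, EXP, EXPA, EXPB, EXLA, EXLB, CSL, CESA, GAUT, GATL, IRX or PME and goes on with a digit, or with a letter and a digit, on probe sets that list a single gene. They are 60 of the 13356 genes that such probe sets name, and each had 1 probe set. They comprise 22 TBL, 9 XTH, 10 EXPA, 4 EXPB, 3 EXLA, 1 EXLB, 7 CSL, 2 IRX, 1 GAUT and 1 PME genes. CESA, GATL and plain EXP symbols gave 0 members on this rule, and 2 probe sets that each list a pair of EXPA genes were left out. The annotation used here names no gene for 8730 of the 22746 probe sets tested. Family members may be missing for that reason, and every family count and median below covers only the members read.

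Cellulose, the hemicelluloses xyloglucan, xylan and mannan, and pectin make up the wall of a growing plant cell. Expansins loosen the wall without cutting its polymers, and xyloglucan endotransglucosylase/hydrolases (XTH) cut xyloglucan chains and rejoin them. Many CSL proteins make hemicellulose backbones, TBL proteins act in the O-acetylation of wall polysaccharides, and pectin methylesterases (PME) remove methyl groups from pectin. Elongation growth of seedlings is timed by light and by the circadian clock, of which TOC1 is an evening-expressed component.

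Wild-type (WT) seedlings were compared with TOC1 overexpressors (TOC1-ox), 3 arrays each, which the series calls biological replicates. The labels give ecotype Col0 and an age of 12 days for both groups. All seedlings grew on MS3 medium under days of 12 h light followed by 12 h darkness and were taken at zeitgeber time 15, in the dark, with no other agent named. The sources used here give neither the promoter that drives TOC1 nor the number of transgenic lines, and the annotation pairs no probe set with TOC1, so its own level is not analysed here. Values are log2 array signals, and signals of different probe sets cannot be ranked as transcript levels. With 3 arrays per group, the precision of every value is limited by that number.

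The arrays of one group were not equally alike. TOC1-ox replicates 1 and 2 differed more than 2-fold at 177 of 22746 probe sets and at 0 of the 60 members, whereas TOC1-ox replicate 3 differed from them at 2480 and 2298 probe sets and at 11 and 7 members. Labelling spike-ins were brightest on both arrays numbered 3, with medians of 7.59 in WT and 7.01 in TOC1-ox against 2.81 to 4.84 elsewhere. Results below are therefore given with all arrays and, where it matters, without TOC1-ox replicate 3. Here "with all arrays" means the unweighted fit with group as the only term. That array was left out because it stood apart from its group, and this by itself narrows the spread within TOC1-ox. Passes without it follow in part from that choice and are given as description only. Leaving out WT replicate 3 instead gave 0 members. Of the leaf markers, LHCB4.1 averaged 14.14 and PSBW 12.41 in WT, against 14.02 and 12.29 in TOC1-ox. The summed level of 3 seed genes, on the log2 scale, was 8.52 to 9.85 in WT and 4.89 to 7.80 in TOC1-ox, lowest in replicate 3. Of these genes, DELTA-VPE was called lower with all arrays (limma, adjusted p = 0.0421). PAP85 and BETA-VPE, both lowest in TOC1-ox replicate 3, were not called (limma, adjusted p = 0.521 and 0.419). The part of the seed genes in the results on the wall genes was not tested.

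PME61, TBL37 and TBL41 rose in TOC1-ox, and no member fell, in the fit of all 6 arrays (limma, Benjamini-Hochberg adjusted p under 0.05 over all probe sets). These 3 calls are 5% of the members, beside 1.78% of all probe sets tested, 1.08% as rises and 0.703% as falls. Of the 60 members, 35 had a positive and 25 a negative difference, and 14 (23.3%) differed at least 2-fold, where 7.54% of all probe sets did. Of these, 9 lay higher and 5 lower in TOC1-ox, beside 4.76% and 2.78% of all probe sets. All 3 calls ended when any 1 array other than TOC1-ox replicate 3 was left out, with limma's adjusted p reaching 0.17 for PME61, 0.142 for TBL37 and 0.158 for TBL41. Quantile normalization or a robust prior left TBL37 alone. The median difference was 0.04 over the members and -0.02 over all probe sets, on the log2 scale. All 3 TOC1-ox arrays lay above all 3 WT arrays at 11 members and below them at 6, beside 9.27% and 10.8% of all probe sets. The 17 are 28.3% of the members, beside 20.1% of all probe sets. They include XTH26 and XTH16, whose groups barely parted. TOC1-ox replicate 3 had 2.3484 and 7.7314 in these genes, and WT replicate 3 had 2.3482 and 7.7376. Without TOC1-ox replicate 3, 12 members passed as higher and 3 as lower, beside 7.05% and 5.94% of all probe sets. Together they are 25% of the members, beside 13% of all probe sets. The bulk samples cannot tell fewer cells of a type from less RNA per cell.

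**Figure D1:**
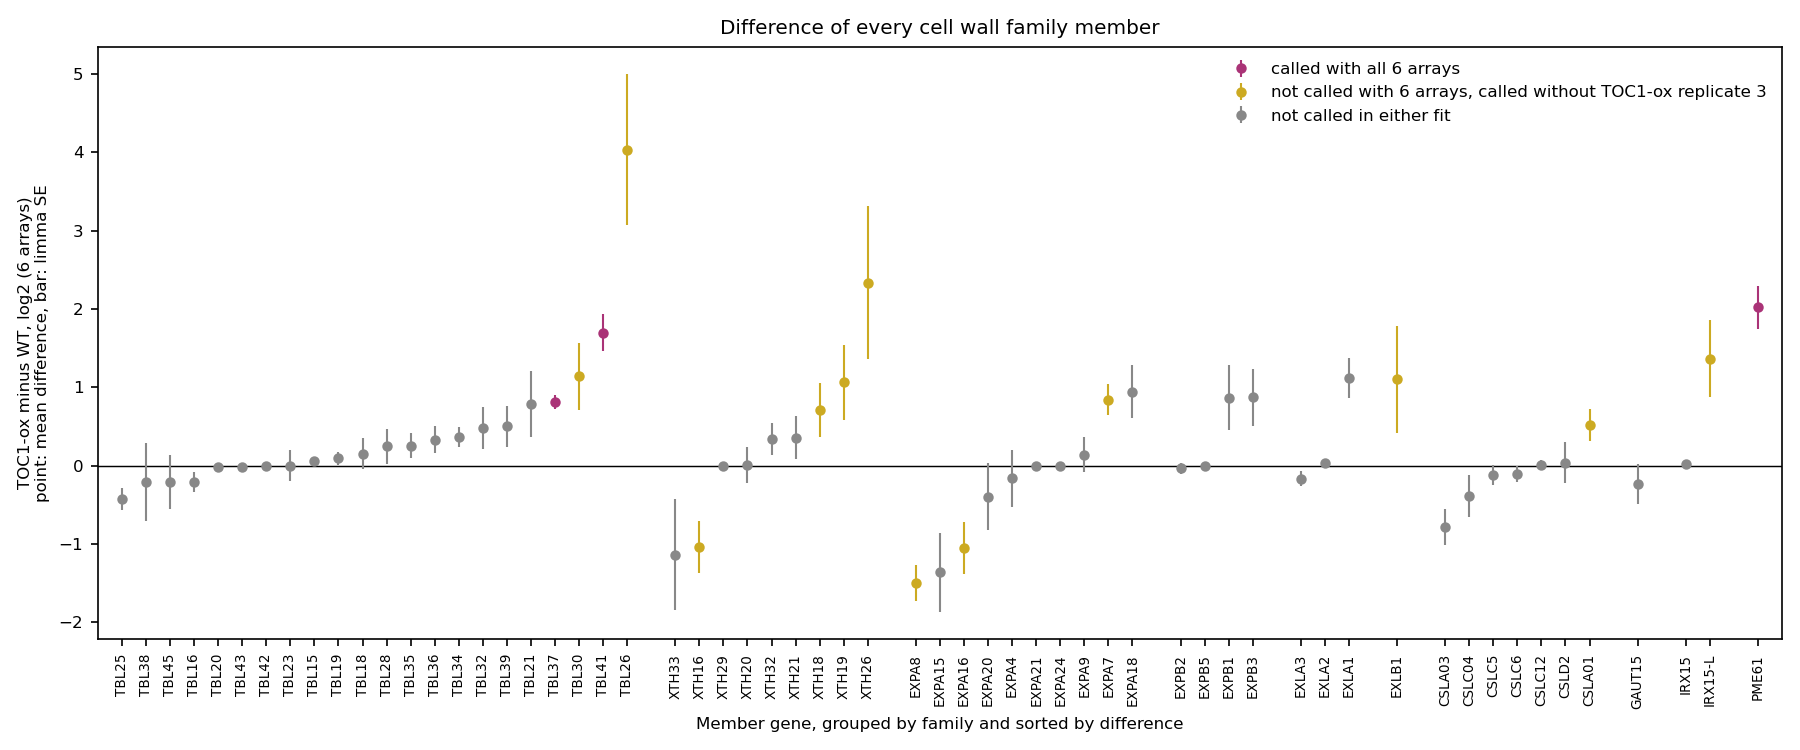
The log2 difference between TOC1-ox and WT (vertical axis, mean of all 6 arrays with limma's standard error) is plotted for each of the 60 members, ordered within its family. Only PME61, TBL37 and TBL41 were called with all arrays; TBL26, at 4.04, differed most but did not pass with all arrays.

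Pectin was represented by 1 methylesterase and 1 gene of the galacturonosyltransferase family. PME61 (AT3G59010), also named PME35, encodes a pectin methylesterase known to act on the homogalacturonan of primary walls in stem fibres. Its log2 values were 6.70, 6.25 and 6.27 in WT replicates 1 to 3 and 8.75, 8.65 and 7.90 in TOC1-ox replicates 1 to 3. Every TOC1-ox array lay more than 2-fold above the WT mean, with replicate 3 the lowest of them. The gene rose 4.07-fold, by log2 2.02 ± 0.28 (standard error, n = 3 each; limma, adjusted p = 0.0469). Among the arrays numbered 1 and 2 only, the difference was 2.22 (limma, adjusted p = 0.037), and between the arrays numbered 3 it was 1.63. GAUT15 (AT3G58790), of the family that builds homogalacturonan, had 7.16, 6.66 and 7.21 in WT and 6.45, 7.20 and 6.68 in TOC1-ox. These groups overlapped, and the difference of -0.24 did not pass (limma, adjusted p = 0.782).

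The TBL family, named after TRICHOME BIREFRINGENCE, held 2 of the 3 calls, both of them rises. Of its 22 members, 15 had positive and 7 negative differences, with a median of 0.20 and a range of -0.43 to 4.04. TBL37 (AT2G34070) had 9.12, 8.83 and 9.06 in WT and 9.86, 9.78 and 9.79 in TOC1-ox. The TOC1-ox arrays were close together, replicate 3 included, and apart from WT. The rise was 1.75-fold, log2 0.81 ± 0.09, with the smallest adjusted p of the members (limma, 0.0311). TBL41 (AT3G14850) had 4.52, 4.48 and 4.07 in WT and 6.47, 5.95 and 5.74 in TOC1-ox, again without overlap. It rose 3.25-fold, log2 1.70 ± 0.23 (limma, adjusted p = 0.0476), from a level close to the dim end of the scale, where the normalization compresses fold changes. The polysaccharides on which TBL37 and TBL41 act are not named here.

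The 3 members TBL23, TBL25 and TBL26 are known as mannan O-acetyltransferases, a grouping made here after the values were seen, and they did not move alike. TBL26 (AT4G01080) had 5.26, 6.80 and 5.33 in WT and 11.00, 10.56 and 7.93 in TOC1-ox. The groups did not overlap, but WT replicate 2 lay well above the other WT arrays and TOC1-ox replicate 3 well below its group. The difference was the largest of the 60 members, log2 4.04 ± 0.97 (16.4-fold), and it did not pass with all arrays (limma, adjusted p = 0.132), though it did in 4 of 17 alternative settings. Without TOC1-ox replicate 3 it was 4.99 ± 0.56 (31.7-fold) and passed (limma, adjusted p = 0.0144), while between the arrays numbered 3 it was 2.60. TBL25 (AT1G01430), the brightest TBL probe set, had 10.60, 10.15 and 10.14 in WT and 9.83, 9.95 and 9.84 in TOC1-ox. All its TOC1-ox values lay slightly below WT, and the difference was -0.43 ± 0.14 (not passed; limma, adjusted p = 0.248). TBL23 had a difference of 0.00 ± 0.20.

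TBL28, TBL30, TBL32, TBL34 and TBL35, known for xylan acetylation and likewise grouped after the values were seen, had positive differences of 0.25 to 1.14, none of which passed with all arrays. TBL30 (AT2G40160) had 5.09, 4.81 and 4.73 in WT and 6.59, 6.37 and 5.08 in TOC1-ox. Replicate 3 lay within the WT values, and replicates 1 and 2 above them. The difference of 1.14 ± 0.43 did not pass with all arrays (limma, adjusted p = 0.293), and without replicate 3 it was 1.61 ± 0.15 (3.04-fold, adjusted p = 0.00944). TBL28, its direct neighbour in the TAIR10.1 gene order, differed by 0.25. The probe set of TBL32 is of the kind that can detect several related transcripts, so its difference of 0.48 may not be that of TBL32 alone.

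The remaining 14 TBL genes, TBL37 and TBL41 among them, had differences of -0.21 to 1.70. The means of 6 of them lay under a log2 value of 4 in both groups. TBL38 had 8.40, 8.21 and 8.16 in WT, 8.70 and 8.49 in TOC1-ox replicates 1 and 2 and 6.96 in replicate 3. TBL21, neighbour of TBL19, had 2.69, 2.68 and 2.59 in WT and 4.24, 3.48 and 2.61 in TOC1-ox. Replicates 1 and 2 lay above WT and replicate 3 within it, and the difference was 0.79 (limma, adjusted p = 0.457).

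**Figure D2:**
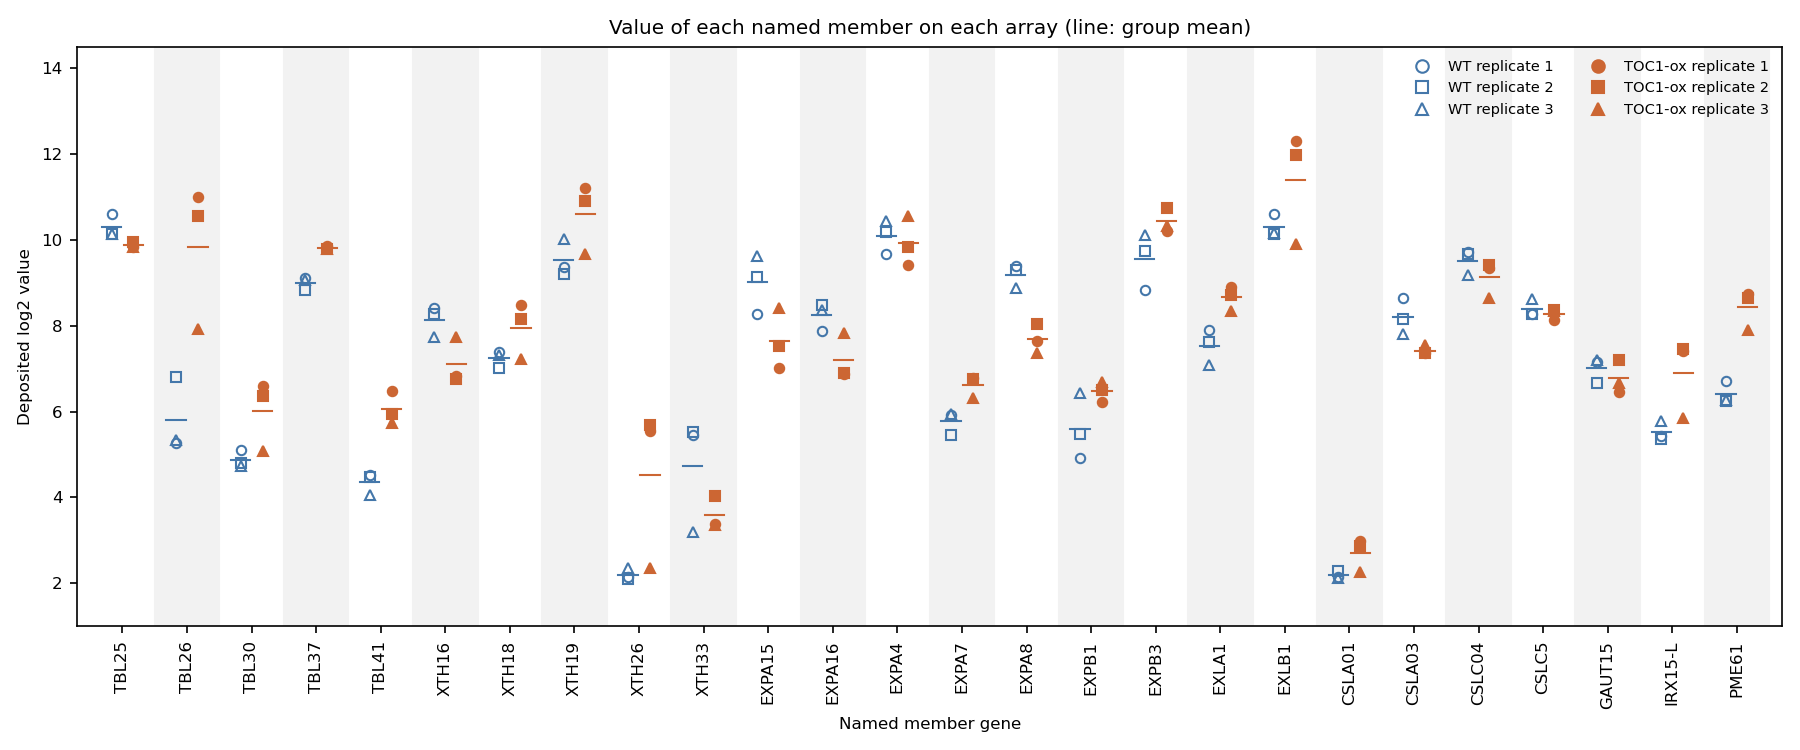
The deposited log2 value of each named member (vertical axis) is plotted on each array, WT in open and TOC1-ox in filled symbols, with a line at each group mean. PME61, TBL37 and TBL41 show separate groups on all arrays, as do several members not called with all arrays, EXPA8 and EXLA1 among them. TOC1-ox replicate 3 (triangles) lies among the WT values for XTH18, XTH19 and TBL30.

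Members of the XTH family differed in both directions, and none of the 9 passed with all arrays. Their median difference was 0.34, in a range of -1.14 to 2.34, with 6 positive and 3 negative. Without TOC1-ox replicate 3, XTH18, XTH19 and XTH26 passed as higher and XTH16 as lower. XTH26 (AT4G28850), known from root hairs, had 2.14, 2.095 and 2.35 in WT, at the bottom of the scale, and 5.55, 5.69 and 2.35 in TOC1-ox. Replicate 3 matched WT replicate 3 to 2 decimals, and only replicates 1 and 2 stood above the background. The difference was 2.34 ± 0.98 with all arrays (limma, adjusted p = 0.339) and 3.43 ± 0.11 without replicate 3 (adjusted p = 0.00179). A fold for it is not well defined, because the WT level lies at the bottom of the scale.

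XTH18 and XTH19 are direct neighbours in the gene order and are known from roots. XTH19 (AT4G30290), the brightest probe set of the family, had 9.38, 9.20 and 10.03 in WT and 11.22, 10.91 and 9.68 in TOC1-ox. XTH18 (AT4G30280) had 7.40, 7.02 and 7.33 in WT and 8.47, 8.16 and 7.23 in TOC1-ox. In both genes replicates 1 and 2 exceeded every WT array and replicate 3 lay inside the WT range. Without replicate 3 the differences were 1.53 ± 0.29 for XTH19 (2.88-fold) and 1.07 ± 0.16 for XTH18 (limma, adjusted p = 0.0452 and 0.0275). With all arrays they were 1.06 and 0.71 (limma, adjusted p = 0.366 and 0.415). Cross-hybridisation between these close relatives was not tested. XTH20, of the same group of root-expressed genes, differed by 0.01.

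XTH16 (AT3G23730) had 8.42, 8.27 and 7.74 in WT and 6.82, 6.76 and 7.73 in TOC1-ox. The lowest WT array and TOC1-ox replicate 3, both numbered 3, lay side by side. Its difference was -1.04 ± 0.34 (limma, adjusted p = 0.233), -1.35 ± 0.23 without TOC1-ox replicate 3 (adjusted p = 0.0346) and -0.01 between the arrays numbered 3. XTH33 (AT1G10550), a plasma-membrane-bound member, had 5.45, 5.53 and 3.19 in WT and 3.39, 4.02 and 3.34 in TOC1-ox. WT replicate 3 was the lowest of all 6 arrays, and the difference of -1.14 ± 0.71 did not pass (limma, adjusted p = 0.544), nor did -1.90 ± 0.26 without that array (adjusted p = 0.0906). XTH32, with a difference of 0.34, had its highest value, 8.69, in TOC1-ox replicate 3. XTH29 and XTH21 had means under 4 in both groups.

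The α-expansins (EXPA) divided by direction. EXPA8, EXPA15 and EXPA16 lay at least 2-fold lower in TOC1-ox, and the root-hair expansins EXPA7 and EXPA18 lay higher, but none of the 10 passed with all arrays. EXPA8 (AT2G40610) came closest. It had 9.39, 9.30 and 8.87 in WT and 7.63, 8.05 and 7.38 in TOC1-ox. The groups were separate, and replicate 3 was the lowest array. The difference was -1.50 ± 0.23, a 2.83-fold lower mean (limma, adjusted p = 0.0555). Without TOC1-ox replicate 3 it was -1.34 ± 0.22 and passed (limma, adjusted p = 0.0324), it passed in 7 of 17 alternative settings in all, and it was -1.50 both among the arrays numbered 1 and 2 and between those numbered 3.

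EXPA16 (AT3G55500) had 7.88, 8.49 and 8.38 in WT and 6.87, 6.91 and 7.83 in TOC1-ox. Replicate 3 came within 0.1 of the lowest WT array without overlapping it. The difference was -1.05 ± 0.33 (limma, adjusted p = 0.215) and -1.36 ± 0.21 without replicate 3 (2.57-fold lower, adjusted p = 0.0268). EXPA15 (AT2G03090) had 8.28, 9.14 and 9.62 in WT and 7.01, 7.52 and 8.42 in TOC1-ox. In both groups the array numbered 3 was the highest, and the groups overlapped. The differences were -1.45 among the arrays numbered 1 and 2 and -1.19 between those numbered 3, and the difference of -1.36 ± 0.51 did not pass (limma, adjusted p = 0.288).

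EXPA7 (AT1G12560) had 5.91, 5.45 and 5.95 in WT and 6.78, 6.76 and 6.31 in TOC1-ox. Its groups did not overlap. The difference was 0.84 ± 0.20 (1.80-fold; limma, adjusted p = 0.129) and 1.00 ± 0.18 without replicate 3 (adjusted p = 0.0386). EXPA18 (AT1G62980) had 7.68, 7.01 and 7.83 in WT and 8.80, 8.64 and 7.90 in TOC1-ox, where replicate 3 barely exceeded the highest WT array. Its difference of 0.94 ± 0.34 passed in neither of these fits (limma, adjusted p = 0.266 and 0.0692). EXPA7, EXPA18 and XTH26 are all known from root hairs, as is the synthase-like gene CSLD2, which differed by 0.04 ± 0.27. Of the root-hair marker list only EXPA7 and EXPA18 could be measured, so the part of root-hair tissue in these values was not tested.

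The other α-expansins had differences smaller than their standard errors. EXPA4 (AT2G39700), the brightest of them, had 9.67, 10.19 and 10.45 in WT and 9.43, 9.83 and 10.57 in TOC1-ox. The groups overlapped almost wholly, with a difference of -0.16 ± 0.36 (limma, adjusted p = 0.925). EXPA9 and EXPA20 differed by 0.14 and -0.39, and EXPA21 and EXPA24 lay at 1.99 to 2.24 on every array, at the bottom of the scale.

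Among the β-expansins and the expansin-like genes no member passed with all arrays. EXPB3 (AT4G28250) had 8.83, 9.74 and 10.11 in WT and 10.22, 10.74 and 10.34 in TOC1-ox, without overlap. WT replicate 1 lay far below the other WT arrays, and the difference of 0.87 ± 0.37 did not pass (limma, adjusted p = 0.341). EXPB1 (AT2G20750) had 4.92, 5.47 and 6.43 in WT and 6.23, 6.51 and 6.68 in TOC1-ox. Its spread over WT, an SD of 0.76, was close to the difference of 0.87 (limma, adjusted p = 0.396). EXPB2 and EXPB5 lay under 2.3 on every array.

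EXLB1 and EXLA1 belong to the expansin-like families, for which wall-loosening activity has not been established. EXLB1 (AT4G17030), the brightest probe set of all members, had 10.60, 10.13 and 10.16 in WT and 12.30, 11.98 and 9.92 in TOC1-ox. Replicates 1 and 2 lay far above WT, whereas replicate 3 was the lowest of the 6 arrays. The difference was 1.101 ± 0.68 with all arrays (limma, adjusted p = 0.537), 1.84 ± 0.20 without replicate 3 (3.59-fold, adjusted p = 0.013) and -0.25 between the arrays numbered 3. EXLA1 (AT3G45970) had 7.89, 7.63 and 7.10 in WT and 8.92, 8.71 and 8.36 in TOC1-ox, with all TOC1-ox arrays above WT. Its difference of 1.12 ± 0.26 (2.18-fold) passed neither with all arrays nor without TOC1-ox replicate 3 (limma, adjusted p = 0.121 and 0.0544). With a term for the arrays numbered 3 it passed (adjusted p = 0.0376), and it was 1.06 among the arrays numbered 1 and 2 and 1.26 between those numbered 3. EXLA3, the direct neighbour of EXLA1, and EXLA2 had means under 4 in both groups.

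Genes of the CSL family had a median size of difference of 0.12, against 0.71 for XTH and 0.62 for EXPA, a contrast for which no test was made. Of CSLC04, CSLC5, CSLC6 and CSLC12, of the group that makes the xyloglucan backbone, 3 had negative differences and none passed. CSLC04 (AT3G28180) had 9.71, 9.67 and 9.18 in WT and 9.34, 9.41 and 8.66 in TOC1-ox. In each group the array numbered 3 was the lowest, and the difference was -0.38 ± 0.27 (limma, adjusted p = 0.596), or -0.14 ± 0.19 without TOC1-ox replicate 3 (adjusted p = 0.817). CSLC5 (AT4G31590) differed by -0.12 ± 0.13.

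CSLA03 and CSLA01 belong to the group that makes mannan backbones. CSLA03 (AT1G23480) had 8.65, 8.17 and 7.81 in WT and 7.36, 7.36 and 7.55 in TOC1-ox. All TOC1-ox values lay below WT, and the difference was -0.79 ± 0.23 (not passed; limma, adjusted p = 0.19). CSLA01 (AT4G16590) had 2.14, 2.27 and 2.13 in WT and 2.98, 2.87 and 2.26 in TOC1-ox. It passed without replicate 3 (difference 0.74 ± 0.08; limma, adjusted p = 0.0119), yet at levels under 3 on every array.

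The IRX members IRX15 and IRX15-L are a pair of related genes needed for normal xylan. IRX15-L (AT5G67210) had 5.44, 5.37 and 5.78 in WT and 7.40, 7.46 and 5.84 in TOC1-ox. Replicate 3 barely exceeded the highest WT array. The difference was 1.37 ± 0.49 (2.58-fold) with all arrays (limma, adjusted p = 0.267) and 1.90 ± 0.15 (3.72-fold) without replicate 3 (adjusted p = 0.00687). IRX15 lay at 2.00 to 2.11 on every array, at the bottom of the scale.

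TOC1-ox replicate 3 lay nearer to WT than replicates 1 and 2 for most members that differed in those replicates. In 17 members the mean of replicates 1 and 2 differed from the WT mean by at least 2-fold, 12 upwards and 5 downwards. Replicate 3 was nearer to the WT mean than both others in 15 of the 17, and inside the WT range in 6. EXPA8 and XTH33 were the 2 exceptions. Over all probe sets the same held for 2046 of 2414 (84.8%). Choosing genes by replicates 1 and 2 itself favours a replicate 3 nearer to WT, and nothing is read from these counts. TBL26, PME61, TBL41 and EXLA1 kept differences of 2.14, 1.49, 1.39 and 0.82 from the WT mean in replicate 3. EXPA8 and XTH33 had -1.81 and -1.38 there, while XTH26, IRX15-L, TBL30 and XTH19 had 0.16, 0.31, 0.21 and 0.14.

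**Figure D3:**
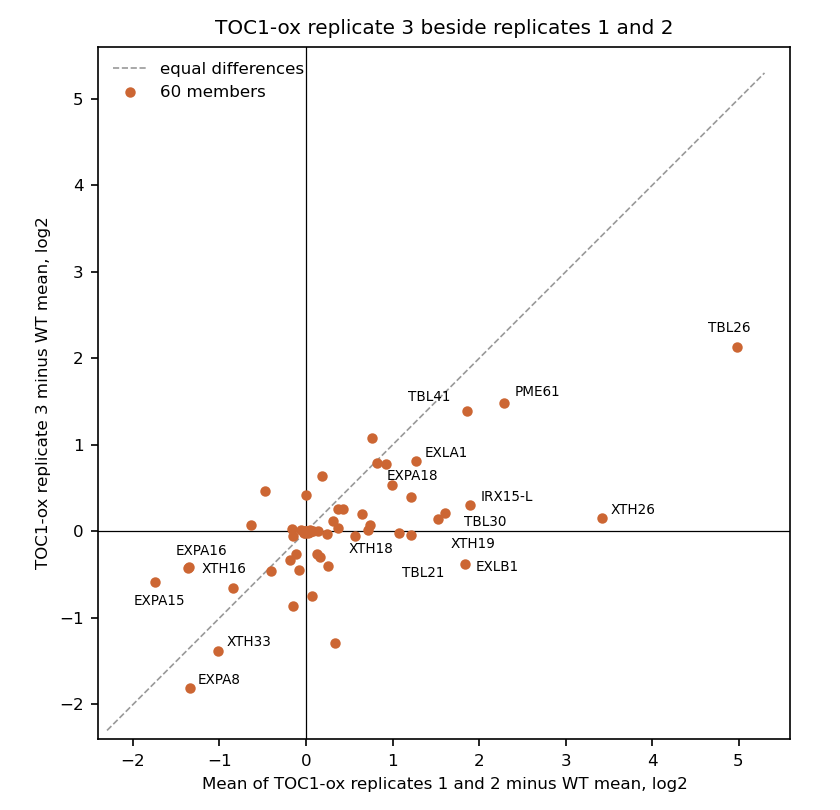
For each of the 60 members, the difference of TOC1-ox replicate 3 from the WT mean (vertical axis, log2) is plotted against that of the mean of replicates 1 and 2 (horizontal axis, log2). The dashed line marks equal differences. The 17 labelled members differed at least 2-fold in the mean of replicates 1 and 2, and 15 of them lie closer to 0 in replicate 3.

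Many dim members had differences near 0. For 18 of the 60 members (30%) both group means lay under a log2 value of 4, beside 35.1% of all probe sets, and the median size of their differences was 0.03. TBL21, at 0.79, and CSLA01, at 0.52, had larger ones, and CSLA01 passed without TOC1-ox replicate 3 (limma, adjusted p = 0.0119). The 42 others had a median size of 0.61. These 42 include XTH26, which reached 4 in TOC1-ox alone, so the split is not independent of the comparison. Among the 18 dim members, all 3 TOC1-ox arrays lay above WT at 1 gene, TBL34, and below it at 1, EXLA3. Over all probe sets, 9.27% lay above in this way and 10.8% below. TBL34 differed by 0.37 and EXLA3 by -0.17, and neither passed (limma, adjusted p = 0.256 and 0.518). Nothing is read from these counts.

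**Figure D4:**
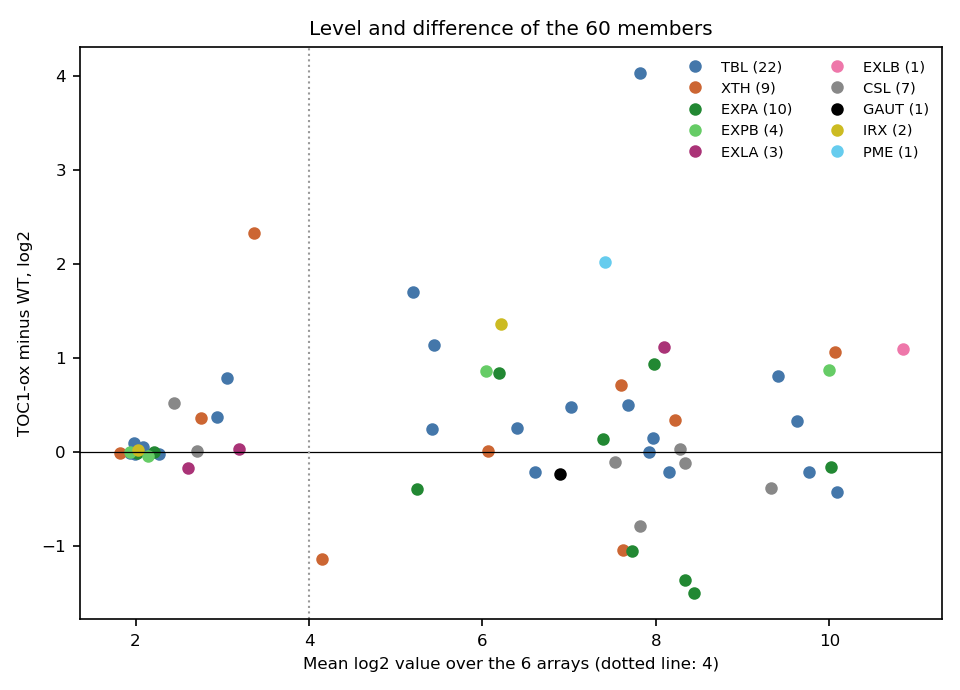
The log2 difference between TOC1-ox and WT (vertical axis) is plotted against the mean log2 value over the 6 arrays (horizontal axis) for the 60 members, coloured by family. Many members left of the dotted line at 4 lie near 0, with XTH26 at 2.34, TBL21 at 0.79 and CSLA01 at 0.52 farthest from it, and differences of at least 2-fold otherwise occur to the right of it.

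Other wall genes were read from 8 lists of pathway genes, of which 14 of 312 listed symbols could be measured under a name and none passed with all arrays. Without TOC1-ox replicate 3, 2 of the 14 passed as higher, beside 7.05% of all probe sets. With 14 genes, nothing is read from that count. GH9B13 (AT4G02290), an endoglucanase-family gene, averaged 6.90 in WT and 8.92 in TOC1-ox and differed by 2.02 (limma, adjusted p = 0.0586, and 0.00809 without replicate 3). HRGP1 (AT3G54590), a hydroxyproline-rich wall protein, differed by 0.97 (limma, adjusted p = 0.322, and 0.00505 without replicate 3), on a probe set of a type that can cross-hybridise with related transcripts. GH9B8, of the same family as GH9B13, differed by 0.57. COB, which orients cellulose deposition, and the lignin enzyme HCT differed by -0.10 and 0.55, the lignin gene CCR2 by -0.31. Of the growth regulators, the auxin-responsive genes HAT2 and IAA29 differed by 0.75 and 0.33 (limma, adjusted p = 0.507 and 0.766), and both had overlapping groups. IAA29 had 2.28, 2.29 and 2.38 in WT and 2.27, 3.42 and 2.27 in TOC1-ox. Its difference thus came from TOC1-ox replicate 2 alone, at the bottom of the scale. The other 3 lists, secondary wall synthesis, nucleotide sugar supply and other polysaccharide synthesis, had no gene that could be read under its name.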

How the data were processed

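Per the submitters' processing notes, the tools were GCRMA and limma (versions not given in the sources used here). The authors deposited log2 values of 22810 probe sets on 6 Affymetrix arrays, made from 1 µg of RNA each, per the labels' protocols. GCRMA corrects background, normalizes by quantiles and draws dim probe sets together, so fold changes of dim genes are compressed; 36.5% of the tested values lay under 4. Depth has no meaning for arrays, and their number limits precision. Groups and replicate numbers came from the sample titles.

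After 64 control probe sets were left out, 22746 entered a limma fit (version 3.58.1, R 4.3.3; lmFit and eBayes, two-sided, with group as the only term), with Benjamini-Hochberg adjustment over all of them. Standard errors are limma's; the prior had 1.02 degrees of freedom. Annotated symbols were linked by gene identifier to loci of the TAIR10.1 table, which matched all 60 members. Coordinates are not printed, since the array's build is not known.

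Members, lists and tests were chosen with earlier results of these data known. Named members were every one called with all arrays or without TOC1-ox replicate 3, the brightest of each family, and the 3 largest differences per family at a mean of at least 4 in either group. Others named were chosen after their values were seen. From each other pathway list, called genes or the 2 largest differences were named. In simulated data on 22746 probe sets, 50 were altered at each shift of log2 1, 2, 3 and 4. The procedure found 22, 36, 40 and 48 of them, with 13 false calls. These counts hold for the simulated data only, and recovery on the real arrays was not tested. On the real arrays, the fits with 1 array left out called between 8 and 2955 probe sets. Alternatives changed the normalization, filters, variance model, weights, block, batch term, arrays used and probe sets per gene. Same-numbered arrays correlated in their deviations from group means at 0.30, -0.01 and 0.08, and the labels state no pairing.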

Additional observations from a re-analysis of the deposited data

How the results depend on the processing

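The counts of calls depended strongly on single arrays and settings. With each array left out in turn, limma called 8 to 2955 probe sets and 0 to 15 members, and the members' median difference ran from 0.0213 to 0.133. All 15 came without TOC1-ox replicate 3, which gave 2955 calls and a median of 0.13, and leaving out any other array gave 0 members. In those other fits 7 to 16 of the 60 members had an unadjusted limma p under 0.05, beside 2581 to 4861 of all 22746 probe sets. Nothing is read from these unadjusted counts. Array weights called 6182 probe sets (46.5% higher, against 60.5% in the unweighted fit of the same arrays) and 26 members. The arrays numbered 1 and 2 only gave 2201 and 8 (median 0.12), and a mean of at least 4 gave 852 and 5 (median 0.15). A mean of at least 6 gave 641 probe sets and a median of 0.15, where fewer dim members were tested. Quantile normalization left 248 probe sets and 1 member, TBL37, and a robust prior 262 and the same 1. With the arrays numbered 3 as a term, 568 probe sets (2.5%) and 5 members passed, EXLA1 and EXPA8 besides the 3. With the replicate number as a replicate block, 0 probe sets and 0 members passed (limma), with 4317 and 16 at an unadjusted p under 0.05 and fewer residual degrees of freedom. TBL37 passed in 10 of 17 alternatives, PME61 in 9 of 17 and TBL41 in 7 of 16, with adjusted p from 0.00409 to 0.142, 0.0031 to 0.17 and 0.00761 to 0.158. EXPA8 passed in 7 of 17 (0.00822 to 0.203) and TBL26 in 4 of 17 (0.0114 to 0.347). Of 435 values of named members under the alternatives, 365 kept their direction and side of the threshold, 43 newly passed, 24 no longer passed and 3 reversed. GAUT15 turned to 0.17 with array weights, and EXPA4, at -0.47 to 0.10 with an array left out, to 0.10 without TOC1-ox replicate 1 and to 0.01 without WT replicate 3; the cause was not tested. Signal limits the 18 members under 4 in both groups.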
